A study of Mus musculus with 4 samples.

Results

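The WNT ligands, receptors, effectors and inhibitors of P38 mouse dorsal skin were followed across the regions of a spatial transcriptomics data set. The 44 genes were taken from a list of symbols and looked up in the feature table of 32286 genes, where all 44 were found. Of these, 40 had at least 50 UMIs (unique molecular identifiers, each counting 1 captured RNA molecule) over all tissue and are described below. The sparse ones were *Dkk1* with 0 UMIs, *Dkk4* with 2, *Wnt16* with 3 and *Rspo2* with 39. A count of 0 among 91815705 UMIs allows up to 3 UMIs of *Dkk1*, or 0.0327 per 1000000 UMIs (counting error only), so it was not detectable at this depth. The skin came from *Krox20-CreERT* mice, in which the *Krox20* locus drives the inducible recombinase, with the *R26-tdTomato* reporter that Cre switches on. The mice received 4-hydroxytamoxifen at P2, so all tissue shared this genotype and treatment and no untreated skin was compared. The study left out another section with distorted structure, and whether its spots are among those analysed here is not given in the sources used here. Each of the 4 slices held sections of the same 3 mice on a Visium slide, where RNA is captured by barcoded spots that keep its position. The slices are technical replicates, so SDs and p-values here cover the spread between slices and not that between mice.

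WNT proteins are secreted lipid-modified ligands that bind Frizzled receptors together with the co-receptors LRP5 or LRP6. In the β-catenin branch this stops the destruction of β-catenin, which then enters the nucleus and acts with the DNA-binding proteins LEF1, TCF7, TCF7L1 and TCF7L2. R-spondins, bound by LGR receptors, keep Frizzled receptors at the cell surface, whereas DKK, SFRP, WIF1, SOSTDC1 and NOTUM proteins limit signalling outside the cell. In skin, the pathway is known for its part in follicle formation, in the onset of hair growth and in the specification of hair shaft cells.

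Spots of the 4 slices were grouped by a clustering that left out all members and 63 other genes of the pathway, so that the genes measured did not define the regions. Named regions were epidermis (851 spots), sebaceous gland (256), upper follicle (712), outer root sheath (832), hair shaft (637), hair matrix (593), melanocyte (101) and skeletal muscle (840). Another 2 regions stayed unnamed and are given by their leading genes, 1 led by *Krtap28-13* and *Krtap4-9* (670 spots) and 1 led by *Krt35* and *Krt25* (492). Levels are given for these 2, but they did not enter the tests between regions. A region is a set of spots, and a spot can hold several cells of different types, so fewer cells of a type and less RNA per cell cannot be told apart. The dermal fibroblast marker list summed to 34011 CPM (range 31625 to 36783 over slices) in the epidermis region and to 18767 CPM (range 14044 to 23684 over slices) in the upper follicle region, and the immune list reached 2482 CPM (range 2146 to 2870 over slices) in the epidermis region and 797 CPM (range 663 to 923 over slices) in the upper follicle. The epidermal list summed to 24569 CPM (range 23526 to 25874 over slices) in the epidermis region and to 1420 CPM (range 1270 to 1621 over slices) in the muscle region. The melanocyte region, with 20 to 31 spots a slice and a median of 21274 UMIs a spot against 12618 over all spots, had 6852 CPM (range 6045 to 7536 over slices) of the melanocyte list, 449 CPM (range 374 to 525 over slices) of the hair matrix list and lay a median of 5 grid steps from the epidermis, as the hair shaft region did. It also held 34329 CPM (range 30344 to 37234 over slices) of the inner root sheath list and 9922 CPM (range 8610 to 10957 over slices) of the hair shaft list. The hair shaft region held 77718 and 27492 CPM of these lists. Which cells of the melanocyte region carried the members was not tested. Slices held between 19393026 and 26910422 UMIs, and 1842 of 2485 barcodes were used in more than 1 slice, as capture areas share a barcode list. A cluster of 280 spots, 96.4% of them from slice 1, was left out, and slice 1 gave only 63 of the outer root sheath spots. Without slice 1, 25 members rather than 28 passed the test for the outer root sheath.

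Levels are given as CPM, a gene's UMIs divided by all UMIs of the region in a slice and scaled by 1000000, for slices 1 to 4 in that order. Ligands, receptors and inhibitors had their highest levels in different parts of the tissue. By mean level, 11 members were highest in the melanocyte region, 6 in the upper follicle, 5 in the hair matrix, 5 in the hair shaft, 4 in the outer root sheath, 3 in the sebaceous gland, 3 in skeletal muscle, 2 in the epidermis and 1 in the *Krt35* region. The map of member levels by region shows this order from the surface to the muscle.

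**Figure D1:**
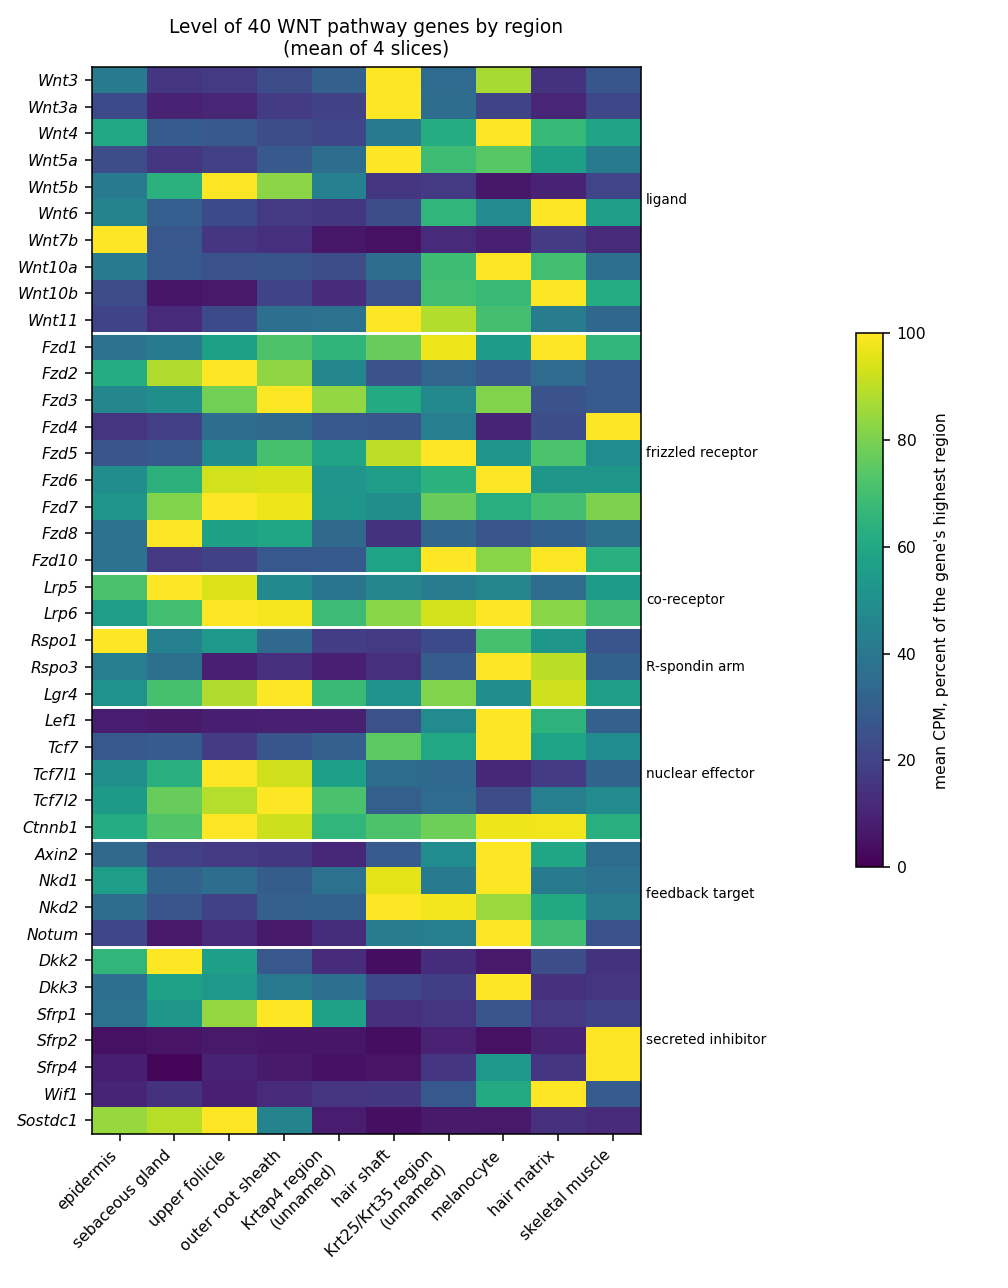
Mean CPM over 4 slices of the 40 members with at least 50 UMIs (rows, grouped by role) in 10 regions (columns, ordered from the epidermis to the muscle), as a percent of each gene's own highest region. *Wnt7b* and *Rspo1* are highest in the epidermis, *Sostdc1* in the upper follicle, *Sfrp1* in the outer root sheath, *Wnt3a* in the hair shaft and *Sfrp2* in skeletal muscle.

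Among the ligands, *Wnt7b*, a ligand known in the epidermis, marked the surface. Its levels in the epidermis region were 61.9, 58.5, 65.5 and 58.5 CPM, and the next region was the sebaceous gland with 7.33, 14.6, 22.1 and 22 CPM. All epidermal values lay above all others, and the lowest mean, in the hair shaft, was 2.63 CPM, 23.2 times below that of the epidermis. In edgeR's quasi-likelihood test against the mean of the other named regions, the log2 fold change of *Wnt7b* in the epidermis was 3.03 ± 0.12 (SE, adjusted p = 8.95e-32). *Wnt4*, a ligand of both epidermis and dermis, reached 75.1 ± 7.05 CPM in the epidermis region against 34.9 ± 13.5 CPM in the upper follicle (SD, n = 4 slices here and below). At the base of the follicle it measured 84.1 ± 7.4 CPM in the hair matrix and 114, 98.5, 138 and 152 CPM in the melanocyte region.

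The hair shaft region carried the highest levels of 4 ligands. *Wnt3*, which acts through β-catenin, measured 38.5, 47.9, 45.2 and 57.9 CPM there and 43.6, 39.1, 36.6 and 45 CPM in the melanocyte region, ranges that overlap. *Wnt3* was low in the neighbouring matrix, with 6.88 ± 1.49 CPM. *Wnt3a*, its closest relative, measured 14.1, 23.4, 19.4 and 25.1 CPM in the shaft, and every slice lay above the next region, the *Krt35* region with 6.9, 6.47, 7.85 and 8.19 CPM. Their log2 fold changes in the shaft against the other regions were 2.07 ± 0.11 (SE, adjusted p = 2.53e-26) for *Wnt3* and 2.88 ± 0.19 (SE, adjusted p = 3.43e-21) for *Wnt3a*. Both were lower in the hair matrix than in the other regions, at -1.28 ± 0.15 and -1.07 ± 0.30. *Wnt5a* and *Wnt11*, ligands best known for signalling without β-catenin, followed the same region. *Wnt5a* measured 109, 112, 134 and 151 CPM in the shaft and 74, 78.2, 109.7 and 113 CPM in the melanocyte region, which overlapped although the shaft was higher in each slice. *Wnt11* measured 18.6, 16.3, 22 and 22 CPM in the shaft and 16.4, 16.6, 17.7 and 19.1 CPM in the *Krt35* region, and the ranges overlapped. Its log2 fold change in the shaft was 1.92, and 0.64 (adjusted p = 0.367) with RPCA integration. There the name hair shaft went to another cluster of 108 spots led by *Sprr1b*, *Lce3d* and *Krt84*, and the cluster led by *Krt32* and *Krtap11-1* (758 spots) took the name inner root sheath.

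A different pair of ligands was highest in the hair matrix, the dividing cells at the base of the follicle. *Wnt6* measured 20.3, 19.2, 22.1 and 18.8 CPM in the matrix, above the 13.4, 15.3, 11.8 and 12.3 CPM of the *Krt35* region in every slice, and 4.76 CPM on average in the shaft. *Wnt10b*, a ligand tied to the start of hair growth, measured 11.1, 13.3, 16 and 14.1 CPM in the matrix. The *Krt35* region followed at 9.49 ± 1.34 CPM, lower in each slice with overlapping ranges, and the shaft measured 3.38 ± 0.84 CPM. The log2 fold changes of *Wnt6* and *Wnt10b* in the matrix were 1.62 ± 0.14 (SE, adjusted p = 2.04e-16) and 2.21 ± 0.18 (SE, adjusted p = 5.74e-17). *Wnt10a*, its close relative, was highest in the melanocyte region with 54.2, 44.2, 43 and 63.8 CPM, above the 34.7, 32.5, 34.2 and 42 CPM of the matrix in each slice. Neither *Wnt6* nor *Wnt10b* was called higher in the shaft. *Wnt6* was called lower there, at -0.51 ± 0.21, although only 2 of 4 slices had that direction.

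*Wnt5b* ran opposite to the ligands of matrix and shaft. It measured 13.5, 23.4, 14.4 and 12.8 CPM in the upper follicle, 13.6, 13.7, 12.8 and 12.9 CPM in the outer root sheath and 1.34, 1.35, 1.93 and 1.81 CPM in the matrix. The upper follicle and outer root sheath overlapped, and both lay above the matrix. Its log2 fold change was 2.07 ± 0.20 (SE, adjusted p = 1.60e-13) in the upper follicle and -1.69 ± 0.35 in the matrix. No level is drawn for the ligand *Wnt16* from its 3 UMIs.

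**Figure D2:**
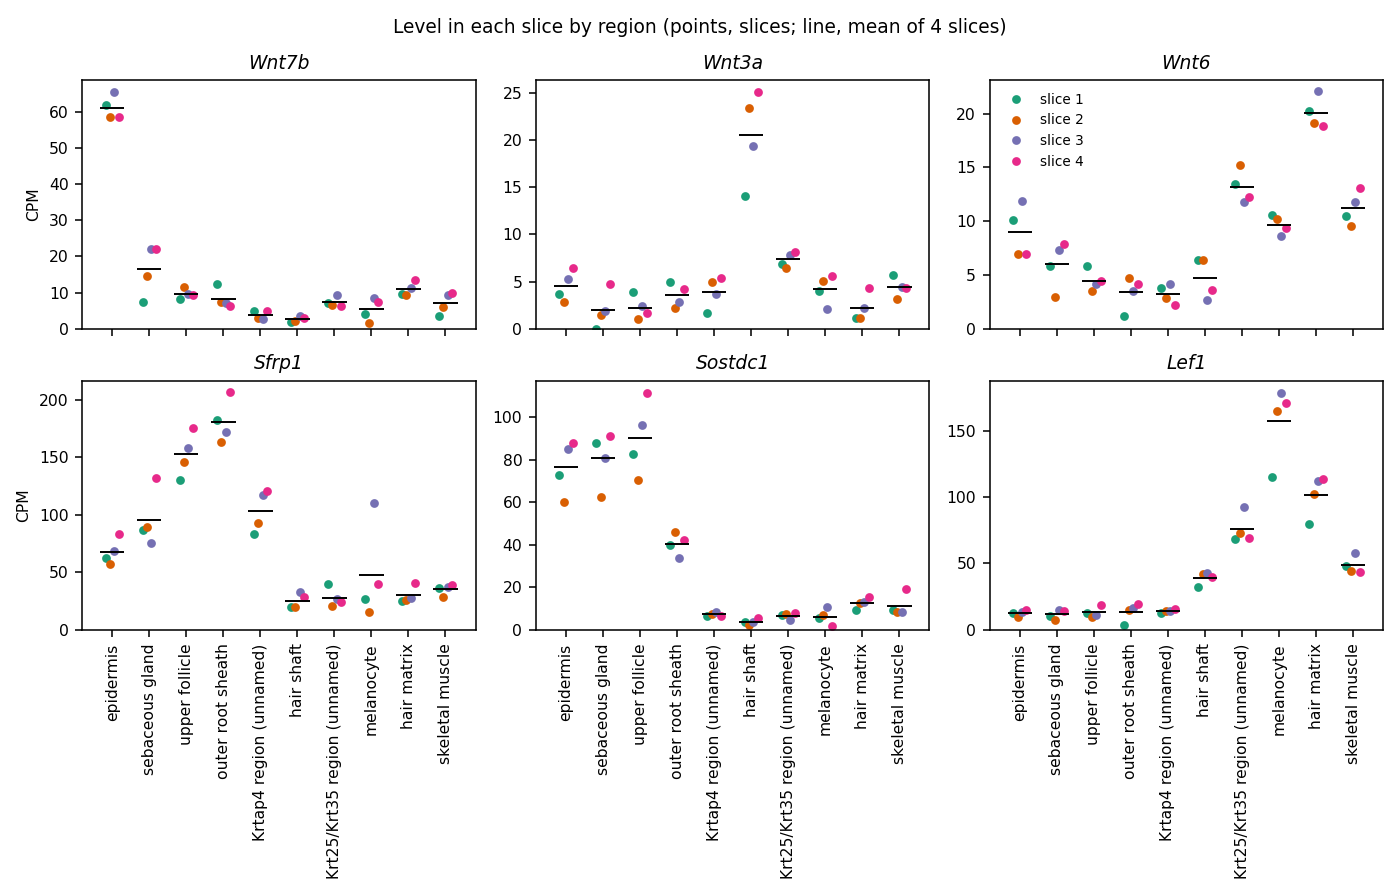
CPM of 6 members in each slice (coloured points) with the mean of 4 slices (black line) in 10 regions ordered from the epidermis to the muscle. *Wnt7b* stands at 61.1 CPM in the epidermis and *Wnt3a* at 20.5 CPM in the hair shaft, each above every slice of every other region, whereas *Sostdc1* overlaps between epidermis, sebaceous gland and upper follicle.

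*Wnt11* and *Wnt5b* are shown by their promoters because they were the only members whose promoter held the letters CTTTGAT on either strand, a core recognised by LEF1 and TCF proteins, while their levels ran in opposite directions along the follicle. Of the members, 27 had 1 or more promoters in the RefSeq table used (build GRCm38.p6), which gives 300 bases around each start, and 3.73% of its 32851 promoters held these letters. The 250 bases before the start are printed 5′ to 3′ with the match in capitals (ATCAAAG is CTTTGAT on the other strand). The *Wnt11* stretch is chr7:98834862-98835111 on the plus strand, with the match beginning 51 bases before the start. The *Wnt5b* stretch is chr6:119449387-119449636 on the minus strand, before 1 of its 3 starts in the table, with the match beginning 71 bases before it.
Wnt11: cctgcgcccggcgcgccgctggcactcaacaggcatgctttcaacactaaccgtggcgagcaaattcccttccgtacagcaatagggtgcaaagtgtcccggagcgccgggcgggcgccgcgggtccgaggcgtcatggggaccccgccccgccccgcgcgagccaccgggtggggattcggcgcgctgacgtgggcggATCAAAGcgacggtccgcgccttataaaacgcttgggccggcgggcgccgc
Wnt5b: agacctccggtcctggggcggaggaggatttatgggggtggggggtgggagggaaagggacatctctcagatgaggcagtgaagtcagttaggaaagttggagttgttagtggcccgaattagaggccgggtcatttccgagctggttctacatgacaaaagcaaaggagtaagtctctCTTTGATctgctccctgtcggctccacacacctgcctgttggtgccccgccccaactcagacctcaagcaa
A match describes the letters only, and whether a factor bound there was not measured. *Axin2*, *Lef1*, *Nkd1* and *Nkd2* had promoters in the table without the letters. *Dkk3*, *Dkk4*, *Fzd2*, *Fzd3*, *Fzd6*, *Fzd8*, *Lrp5*, *Lrp6*, *Notum*, *Rspo2*, *Rspo3*, *Sfrp1*, *Sfrp4*, *Sostdc1*, *Wnt5a*, *Wnt7b* and *Wnt10a* had no entry.

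The Frizzled receptors, which bind the ligands at the cell surface, split into a shallow and a deep set. *Fzd2* was highest in the upper follicle with 86.1, 99.5, 111 and 93.8 CPM, which overlapped the sebaceous gland at 86.0 ± 20.1 CPM. It measured 24.9 CPM on average in the shaft. *Fzd3* was highest in the outer root sheath, at 27.3, 32.5, 29.4 and 32.1 CPM, with the adjoining *Krtap4-9* region at 21, 27, 25.9 and 27.7 CPM, lower in each slice with overlapping ranges. *Fzd7* and *Fzd6* were close to level between upper follicle and outer root sheath, with means of 38.2 and 37.3 CPM for *Fzd7* and of 55.9 and 56.2 CPM for *Fzd6*, which measured 60.0 ± 16.3 CPM in the melanocyte region. *Fzd8* was highest in the sebaceous gland at 14.7, 20.4, 22.1 and 15.7 CPM, above the 12.4, 11.2, 9.57 and 9.76 CPM of the outer root sheath in every slice. *Fzd10* and *Fzd1* peaked deep in the follicle. *Fzd10* measured 60.8, 63.4, 71.7 and 81.4 CPM in the matrix and 60.3, 55.5, 80.9 and 80.1 CPM in the *Krt35* region, and 19 CPM on average in the outer root sheath. *Fzd1* had means of 149 CPM in the matrix, 145 in the *Krt35* region and 56.9 in the epidermis. *Fzd5* was highest in the *Krt35* region at 83.2, 86.5, 122 and 146 CPM, which overlapped the 84, 91.2, 105 and 114 CPM of the shaft.

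*Fzd4*, known as a receptor of blood vessels, was highest in the muscle region. It measured 38.9, 46, 44.2 and 48.9 CPM there, above the 16, 18, 21.1 and 21.4 CPM of the next, the *Krt35* region, in every slice, and its log2 fold change was 2.26 ± 0.11 (SE, adjusted p = 2.53e-28). The endothelial list summed to 275 CPM (range 265 to 291 over slices) in muscle and to 293 CPM (range 236 to 343 over slices) in the sebaceous gland, where *Fzd4* averaged 8.51 CPM. When each spot went to its highest-scoring marker list, *Fzd4* and *Fzd1* were called higher in the endothelium group. The part of endothelial cells in the muscle result was not tested. In the outer root sheath 7 of the 9 Frizzled genes were higher than in the other regions and 1, *Fzd10*, was lower, where 19.5% of all genes were higher and 15.7% lower. In the upper follicle 6 of 9 were higher and 1 lower, against 26.2% and 21.7% of all genes. In the epidermis 1 was higher (*Fzd2*, 0.37) and 5 were lower, against 26.8% and 23.2%. The direction of *Fzd2* turned in the epidermis group when each spot went to its highest-scoring marker list, at -0.46 (adjusted p = 0.0012), while it was higher in the fibroblast (0.65) and immune (0.41) groups.

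The co-receptor genes varied less between regions than most ligands. *Lrp6* ran from 28.3 CPM on average in the epidermis to 50.9 in the upper follicle and 50.9 in the melanocyte region, and the last pair overlapped. *Lrp5* ran from 3.4 CPM in the matrix to 9.49 in the sebaceous gland, where its log2 fold change was 0.87 ± 0.34 (SE, adjusted p = 0.0369). That call was lost without slice 2, 3 or 4 (adjusted p = 0.278, 0.0737 and 0.0824), and the region held 24 UMIs of the gene.

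In the R-spondin arm, *Rspo1* was highest by mean in the epidermis region and *Rspo3* lay at the base of the follicle. *Rspo1* measured 11.8, 18, 13.9 and 13.4 CPM in the epidermis, with a log2 fold change of 1.32 ± 0.19 (SE, adjusted p = 4.22e-08). This was lost with RPCA integration (0.67, adjusted p = 0.0801) and with thinned spots (0.88, adjusted p = 0.0614), under which the epidermis region held 434 and 392 spots. In the groups set by marker scores *Rspo1* was not called in the epidermis (0.59, adjusted p = 0.0796) and was higher in the immune group (1.36) and the fibroblast group (1.11). *Rspo3* measured 4.23, 6.09, 5.24 and 6.87 CPM in the matrix and 6.61, 3.4, 15.1 and 0 CPM in the melanocyte region, the latter from 14 UMIs. In the matrix its log2 fold change was 1.70 ± 0.28 (SE, adjusted p = 2.54e-07), whereas the melanocyte call (1.67) was lost without slice 1 or 3 (adjusted p = 0.0518 and 0.239). *Lgr4*, the R-spondin receptor of the list, was spread over the follicle, with 85.5, 84, 78 and 94.9 CPM in the outer root sheath and 77, 67.6, 81.9 and 90.4 CPM in the matrix, which overlapped. *Rspo2* gave 39 UMIs, too few for a level by region.

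Among the nuclear effectors, *Lef1* and *Tcf7* were deep and *Tcf7l1* and *Tcf7l2* shallow. *Lef1*, a partner of β-catenin in hair shaft precursors, measured 115, 165, 178 and 171 CPM in the melanocyte region and 79.5, 102, 112 and 113 CPM in the matrix. The melanocyte region was higher in each slice, and the outer root sheath measured 3.72, 15, 16.3 and 19.5 CPM, with slice 1 lowest. Its log2 fold change was 1.94 ± 0.09 (SE, adjusted p = 2.58e-28) in the matrix and 2.48 ± 0.12 in the melanocyte region. *Tcf7* had means of 21.6 ± 10.6 CPM in the melanocyte region and 16.2 ± 6.91 CPM in the shaft, a spread wider than their difference, and its melanocyte call (1.27) was lost without slice 4 (adjusted p = 0.235). *Tcf7l1*, which mostly represses target genes in follicle stem cells, measured 33.9, 34.8, 36.6 and 31.6 CPM in the upper follicle, 32.2, 32.2, 29.1 and 33.8 CPM in the outer root sheath and 5.29, 1.7, 4.3 and 3.75 CPM in the melanocyte region. *Tcf7l2* was highest in the outer root sheath at 39.7, 41.2, 37.9 and 50.2 CPM, which overlapped the 37.5 ± 9.02 CPM of the upper follicle. *Ctnnb1*, which encodes β-catenin itself, varied little, from 434 CPM in the epidermis to 700.0 in the upper follicle.

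The feedback targets, genes that β-catenin signalling is known to switch on and that limit it, lay deep in the follicle. *Axin2*, a scaffold of the complex that destroys β-catenin, measured 35.7, 39.1, 36.6 and 46.9 CPM in the melanocyte region, 20.9, 18.3, 24.3 and 30.4 CPM in the matrix and 8.68, 4.37, 5.32 and 7.32 CPM in the outer root sheath. Each slice had this order. *Nkd2* measured 132 ± 13.2 CPM in the shaft and 130.0 ± 14.8 CPM in the *Krt35* region, a spread wider than their difference, whereas the upper follicle averaged 25.9 CPM. *Nkd1* measured 22.1, 21.3, 20.9 and 24.1 CPM in the shaft and 19.8, 30.6, 19.4 and 22.5 CPM in the melanocyte region, with no order beyond the spread. *Notum*, a secreted enzyme that removes the lipid from WNT proteins, measured 14.5, 8.5, 6.45 and 13.1 CPM in the melanocyte region, from 26 UMIs, and 5.12, 8.12, 6.89 and 9.4 CPM in the matrix. All 4 targets were higher in the melanocyte region than in the other regions, where 17.8% of all genes were higher. All 4 were lower in the outer root sheath, where 15.7% of all genes were lower, with log2 fold changes there of -1.27 for *Axin2*, -1.66 for *Notum*, -0.94 for *Nkd1* and -0.59 for *Nkd2*. The melanocyte call of *Nkd1* was lost with thinned spots (0.17, adjusted p = 0.695) and among spots with at least 1000 genes (0.30, adjusted p = 0.0825). In those settings the melanocyte region held 395 and 359 spots rather than 101, with *Krt35* among its leading genes. These values therefore do not describe the same spots.

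The secreted inhibitors were spread from the surface to the muscle. *Sfrp1*, which binds WNT proteins, measured 182, 163, 172 and 206 CPM in the outer root sheath and 130.1, 146, 158 and 175 CPM in the upper follicle. The outer root sheath was higher in each slice with overlapping ranges, and the shaft and matrix lay far lower, at 25.1 ± 6.59 CPM and 29.9 ± 7.2 CPM. Its log2 fold change in the outer root sheath was 1.75 ± 0.13 (SE, adjusted p = 1.92e-11). *Sostdc1*, which binds LRP co-receptors and bone morphogenetic proteins, measured 82.7, 70.6, 96.6 and 112 CPM in the upper follicle, 87.9, 62.7, 80.9 and 91 CPM in the sebaceous gland and 72.8, 60.2, 85.3 and 88.1 CPM in the epidermis. Those 3 overlapped, and the shaft measured 3.52, 2.13, 3.42 and 5.63 CPM, 24.6 times below the upper follicle by mean. *Dkk2*, which binds LRP co-receptors, was highest in the sebaceous gland at 16.1, 17.5, 27.6 and 29.8 CPM and next in the epidermis at 16.2, 12.7, 15.2 and 15.6 CPM. Its lowest region, the shaft, gave 10 UMIs in all. *Dkk3*, a divergent family member, measured 64.8, 81.6, 101 and 91.9 CPM in the melanocyte region, above the 46.9, 37.9, 51.5 and 58.1 CPM of the sebaceous gland in every slice.

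*Wif1*, which holds WNT proteins outside the cell, was the inhibitor of the hair matrix region. It measured 79.5, 98.5, 72.5 and 94.4 CPM there and 26.4, 30.6, 116 and 37.5 CPM in the melanocyte region, where slice 3 alone exceeded the matrix. Its log2 fold change in the matrix was 2.55 ± 0.11 (SE, adjusted p = 9.98e-22). *Sfrp2* and *Sfrp4*, secreted by dermal and connective tissue fibroblasts, were highest in the muscle region. *Sfrp2* measured 41.8, 52.9, 39.2 and 42.6 CPM there and no more than 4.38 CPM on average in any other region given here. A cluster of 129 spots, 1 of them from slice 1, was left out of the regions and had *Sfrp2* among its leading genes. *Sfrp4* measured 28.8, 38.6, 23.2 and 27.4 CPM in muscle and 18.5, 11.9, 21.5 and 11.3 CPM in the melanocyte region. The log2 fold changes of *Sfrp2* and *Sfrp4* in muscle were 4.22 ± 0.20 (SE, adjusted p = 2.20e-20) and 3.58 ± 0.18 (SE, adjusted p = 4.10e-27). The fibroblast list summed to 9356 CPM (range 8415 to 10060 over slices) in the muscle region, lower than in the epidermis region, where *Sfrp2* averaged 1.94 CPM and *Sfrp4* 2.53. Which cells of the muscle region carried *Sfrp2* and *Sfrp4* was not tested.

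Read against all genes, the number of members called (adjusted p under 0.05 in edgeR over 12328 genes) was uneven across regions. In the melanocyte region 18 of 40 members were higher and 12 lower, where 17.8% of all genes were higher and 26.2% lower. In the outer root sheath 16 were higher and 12 lower, against 19.5% and 15.7% of all genes. The upper follicle had 17 higher and 16 lower, against 26.2% and 21.7%. The hair shaft had 13 higher and 14 lower, against 24.2% and 24.6%, but with 17 members called in all rather than 27 when regions came from marker scores. In the hair matrix 16 were higher and 12 lower, against 36.4% and 32.9%, shares near the background. Muscle had 12 higher and 10 lower (25.6% and 22.3% of all genes), the sebaceous gland 11 and 14 (21.4% and 14%) and the epidermis 7 and 13 (26.8% and 23.2%), which for the epidermis is below the background among higher genes. Median log2 fold changes of the 40 members were 0.38 in the melanocyte region, 0.30 in the matrix, 0.02 in muscle, -0.04 in the shaft, -0.09 in the epidermis and in the upper follicle, -0.25 in the outer root sheath and -0.47 in the sebaceous gland, where the medians over all genes lay between -0.09 and 0.01. In the muscle region the members called higher included *Wnt6*, *Wnt10b*, *Lef1*, *Fzd10* and *Wif1*, and the hair matrix list summed to 774 CPM (range 756 to 815 over slices) there, against 298 CPM (range 233 to 334 over slices) in the outer root sheath and 1675 CPM (range 1598 to 1759 over slices) in the matrix. Its part in these calls was not tested.

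A direct comparison set the epidermis region, which also held fibroblast and immune markers, against the upper follicle region. In the epidermis 12 members were higher and 15 lower, where 12.3% of all genes were higher and 10.7% lower. Of the 10 ligands tested, 6 were higher and 1 lower. *Wnt7b* led with a log2 fold change of 2.66 ± 0.18 (SE, adjusted p = 9.84e-20), followed by *Wnt10b* at 1.74 ± 0.52, *Wnt3* at 1.31 ± 0.21, *Wnt4* at 1.12 ± 0.16, *Wnt6* at 1.00 ± 0.29 and *Wnt10a* at 0.69 ± 0.19, while *Wnt5b* was lower, at -1.32 ± 0.25. Receptors went the other way, with 7 of 9 Frizzled genes lower (*Fzd4* at -1.16 and *Fzd6* at -0.92, for example) and only *Fzd10* higher, at 0.87 ± 0.20. Feedback targets were higher in 3 of 4 cases, with *Axin2* at 0.94 ± 0.23, *Nkd2* at 0.87 ± 0.14 and *Nkd1* at 0.69 ± 0.22. *Rspo3* was higher at 2.19 ± 0.73, from 21 UMIs in the epidermis and 4 in the upper follicle, and *Rspo1* at 0.89 ± 0.26. The inhibitor *Sfrp1* was lower, at -1.16 ± 0.19 (SE, adjusted p = 3.70e-05), and *Sostdc1* measured -0.23 ± 0.13, which did not pass the test. Immune and fibroblast marker lists were higher in the epidermis region (given above), and their part in these differences was not tested. The region held 851 spots here but 406 with 16 clusters, 434 with RPCA integration, 392 with thinned spots and 432 by marker scores. Among spots with at least 1000 genes it held 840. With 16 clusters, 468 spots formed an immune region whose leading genes included *H2-Ab1*, *Col1a1* and *Col1a2*.

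Within the follicle, the matrix and shaft regions together were compared with the outer root sheath, the outer layer that surrounds them. Of the members, 18 were higher in matrix and shaft and 13 lower, against 28.8% and 28.4% of all genes. Ligands were higher in 8 of 10 cases and all 4 feedback targets were higher, led by *Notum* at 2.64 ± 0.42 (SE, adjusted p = 1.87e-07) and *Axin2* at 1.54 ± 0.19 (SE, adjusted p = 2.22e-10). *Lef1* was higher at 2.12 ± 0.14 and *Tcf7* at 1.26 ± 0.36, whereas *Tcf7l1* was lower at -1.81 ± 0.15 and *Tcf7l2* at -1.39 ± 0.13. Lower inhibitors were *Sfrp1* (-2.63 ± 0.16), *Sostdc1* (-2.50 ± 0.17), *Dkk2* (-1.32 ± 0.30) and *Dkk3* (-1.15 ± 0.12). *Wnt5b* was the 1 ligand that was lower, at -2.57 ± 0.24.

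Distance gave a view that does not rest on the naming of follicle regions. Each spot was placed by the number of grid steps to the nearest epidermal spot, which can belong to a neighbouring section because sections lie side by side. Spots at 1 to 2 steps (1622) were compared with those at 5 steps and over (2398), in a test over 13092 genes. Near the epidermis 17 members were higher and 22 lower, where 33.4% of all genes were higher and 33.2% lower. The members' median log2 fold change was -0.57 and that of all genes was 0.00. *Lrp6*, at 0.20 ± 0.14, was the 1 member not called, and with the slice as a block it was called as well (0.22, adjusted p = 0.0065).

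**Figure D3:**
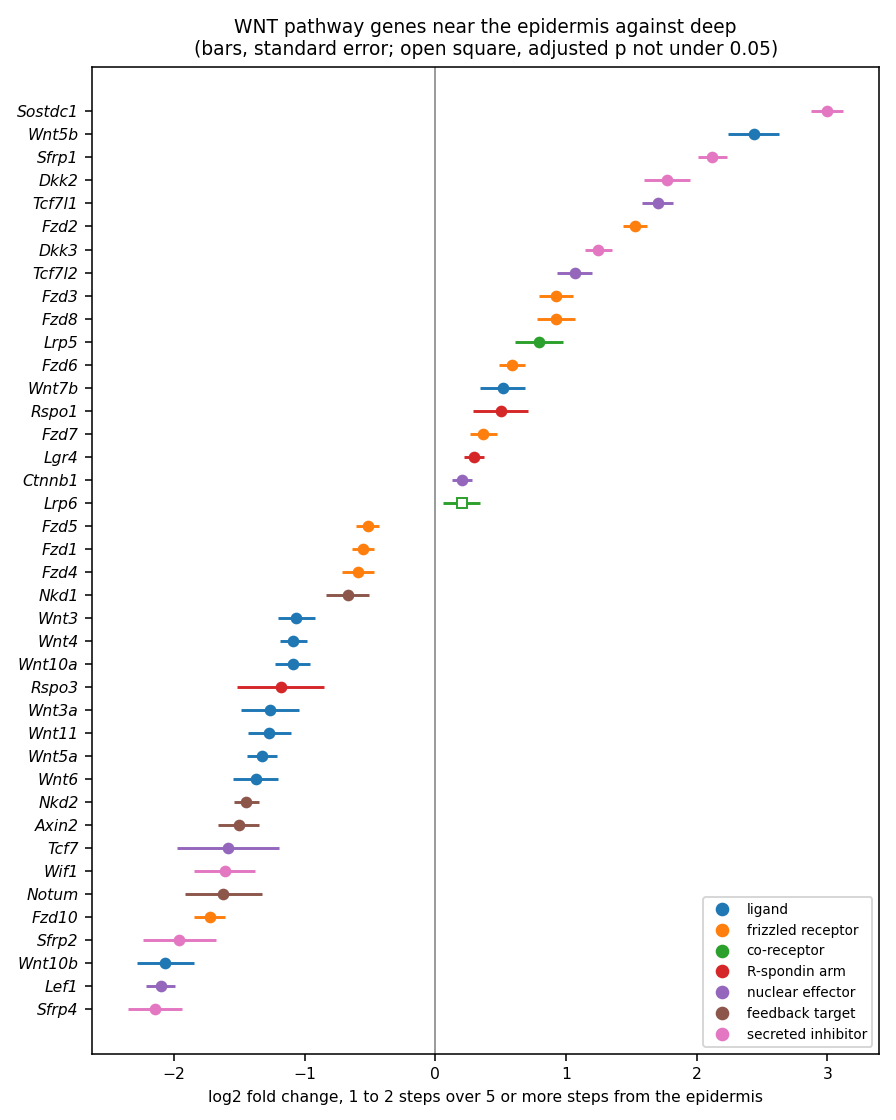
Log2 fold change of each member at 1 to 2 grid steps over 5 or more grid steps from the epidermis (points, coloured by role) with its standard error (bars), 40 members ordered by value. *Sostdc1* stands highest at 3.00 and *Sfrp4* lowest at -2.15, and ligands other than *Wnt5b* and *Wnt7b* lie below 0.

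The largest difference towards the surface was that of *Sostdc1*, at 3.00 ± 0.12 (SE, adjusted p = 2.60e-18), followed by *Wnt5b* at 2.44 ± 0.20 (SE, adjusted p = 5.09e-12), *Sfrp1* at 2.12 ± 0.11 (SE, adjusted p = 3.73e-14) and *Dkk2* at 1.77 ± 0.18. *Tcf7l1* was higher near the surface at 1.70 ± 0.12, *Fzd2* at 1.53 ± 0.09 and *Dkk3* at 1.25 ± 0.10. Those lower near the surface were led by *Sfrp4* at -2.15 ± 0.21 (SE, adjusted p = 2.32e-10), *Lef1* at -2.10 ± 0.11 (SE, adjusted p = 2.61e-16) and *Wnt10b* at -2.07 ± 0.22 (SE, adjusted p = 1.73e-09). Of the 10 ligands, 2 were higher near the surface and 8 were lower, and all 4 feedback targets were lower. *Nkd1* (-0.67) was not called with 16 clusters (-0.28, adjusted p = 0.119), score-based regions (-0.27, adjusted p = 0.126), RPCA integration (-0.31, adjusted p = 0.0891) or thinned spots (-0.02, adjusted p = 0.958). The smaller differences were less firm. *Wnt7b* (0.52) was no longer called without slice 2 (adjusted p = 0.0962), *Rspo1* (0.50) without slice 2, 3 or 4 (adjusted p = 0.103, 0.142 and 0.0664) and *Ctnnb1* (0.20) without slice 1 or 3 (adjusted p = 0.0869 and 0.0543). When steps 4 to 6 served as the deep class in place of all steps from 5, *Sfrp2* was at -0.09 (adjusted p = 0.826) rather than -1.96 and *Fzd4* at -0.13 (adjusted p = 0.405) rather than -0.59.

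Step by step, the members peaked in an order by their mean over slices. The step of the highest level was the same in all 4 slices for 13 of the 40 members and matched the mean's in 1 slice for *Wnt4*, *Fzd5*, *Fzd10*, *Lrp6* and *Wif1*. It ran from step 0 to 5 over slices for *Nkd1*, from 1 to 5 for *Lrp6*, from 4 to 7 for *Wif1* and from 5 to 8 for *Tcf7*. *Wnt7b* and *Rspo1* peaked at step 0, the spots of the epidermis region. At step 1 peaked 8 members, among them *Wnt5b*, *Fzd2*, *Dkk2* and *Sostdc1*, and at step 2 peaked 7, among them *Sfrp1*, *Tcf7l1*, *Tcf7l2* and *Lgr4*. *Fzd3* peaked at step 3, and none did at step 4. At step 5 peaked 9 members, among them *Wnt3*, *Wnt3a*, *Wnt5a*, *Wnt11*, *Nkd1* and *Nkd2*, at step 6 peaked 7, among them *Lef1*, *Axin2*, *Wnt10a* and *Wif1*, at step 7 *Wnt4*, *Wnt6* and *Wnt10b*, and at 8 steps and over *Fzd4*, *Sfrp2* and *Sfrp4*. *Wnt7b* went from 61.1 CPM at step 0 to 13.5 at step 1 and 7.03 at step 2, and stayed between 5.2 and 8.12 beyond it. *Axin2* had 2 high ends, with 11.8, 12.2, 13.9 and 16.6 CPM at step 0, 6.12, 5.18, 5.48 and 4.55 CPM at step 3 and 19.2, 17.9, 23 and 24.2 CPM at step 6. Step 3 lay below both ends in every slice. *Wnt4* had the same form, with means of 75.1 CPM at step 0, 34.8 at step 3 and 80.2 at step 7. *Wnt3a* went from 3.49 CPM at step 3 to 11.5 at step 5 and was back at 3.44 at step 7, by mean, and *Sfrp1* went from 159 CPM at step 2 to 28.1 at step 5. *Sfrp2* stayed at or under 7.68 CPM up to step 6 and measured 49.9, 52.8, 50.9 and 77.9 CPM at 8 steps and over.

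**Figure D4:**
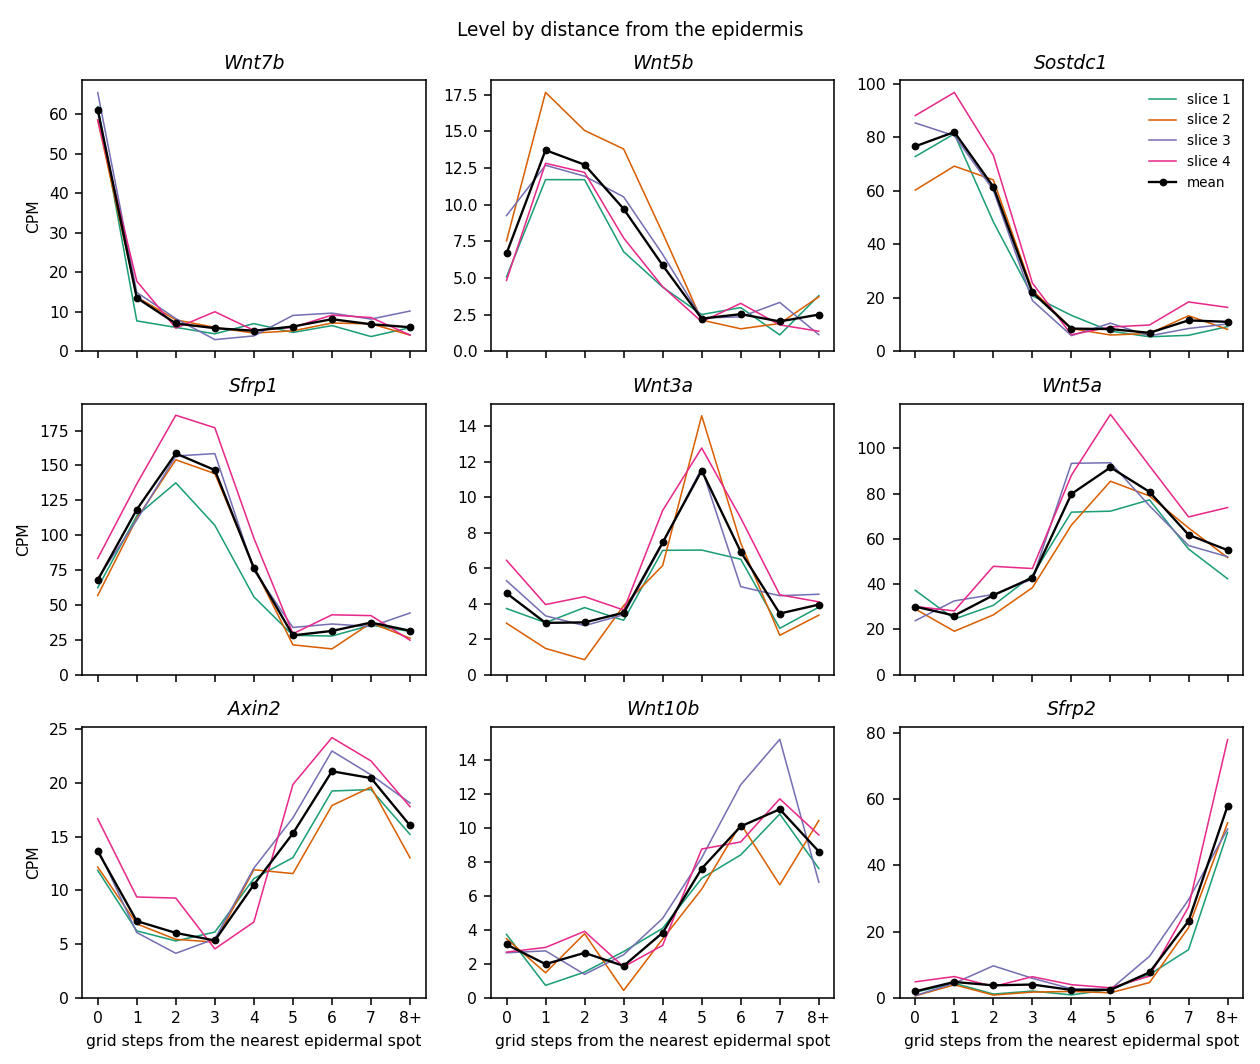
CPM of 9 members by grid steps from the nearest epidermal spot (8+ holds 8 steps and over), for each slice (coloured lines) and as the mean of 4 slices (black). *Wnt7b* stands at 61.1 CPM at step 0 and 13.5 at step 1, *Sfrp1* is highest at step 2, *Wnt3a* and *Wnt5a* at step 5, and *Sfrp2* is highest at 8 steps and over.

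Dermis, adipose tissue and dermal papilla did not form clusters of their own in the main clustering. For these, each spot was given to the marker list with its highest score, which set apart 176 dermal fibroblast, 432 adipose and 275 dermal papilla spots. The test over these groups covered 11220 genes and 38 members, without *Rspo3* and *Notum*, which did not pass the filter on low counts. In the fibroblast group 8 members were higher and 3 lower, where 9.95% of all genes were higher and 4.54% lower. *Sfrp2* led with 35.6, 43.5, 6.82 and 66 CPM, where slice 3 was far below the others, and a log2 fold change of 2.98 ± 0.33 (SE, adjusted p = 2.39e-10). *Sfrp4* measured 20.6, 25, 6.82 and 31.3 CPM, again lowest in slice 3, with 2.46 ± 0.34 (SE, adjusted p = 1.52e-08). *Wnt5b* was higher in the fibroblast group at 1.56 ± 0.32, *Rspo1* at 1.11 ± 0.32 and *Sostdc1* at 1.05 ± 0.17. The group also held 13003 CPM (range 12372 to 13535 over slices) of the upper follicle list, 10025 CPM (range 9396 to 10851 over slices) of the outer root sheath list and 5373 CPM (range 4317 to 6580 over slices) of the muscle list, whose part in these results was not tested. The call of *Rspo1* was lost without slice 2 (adjusted p = 0.386) and that of *Tcf7l1*, also higher, without slice 1 (adjusted p = 0.270). Each of the 3 lower calls was lost in some settings. These were *Fzd10* without slice 1 or 2 (adjusted p = 0.146 and 0.210) and *Wnt5a* without slice 2 or 4 (adjusted p = 0.0671 and 0.0550). *Nkd2* was lost without slice 1, 3 or 4 (adjusted p = 0.0655, 0.0742 and 0.0832). The Schwann cell group also held *Sfrp2*, at 31.2 ± 15 CPM. That group held 10156 CPM (range 5940 to 15406 over slices) of the muscle list and 13365 CPM (range 11473 to 16669 over slices) of the fibroblast list. Which of its cells carried *Sfrp2* was not tested.

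In the dermal papilla group, named after the mesenchyme that the matrix encloses, 10 members were higher and 1 lower, where 10.6% of all genes were higher and 9.22% lower. *Wif1* measured 94, 151, 95.7 and 90.3 CPM there, highest in slice 2, and 62, 71.6, 46.2 and 85.7 CPM in the matrix group. Each slice was higher in the papilla group, and its log2 fold change against all other groups was 2.71 ± 0.16 (SE, adjusted p = 5.23e-20). *Lef1* was higher at 1.36 ± 0.13, *Axin2* at 0.69 ± 0.19 and *Fzd10* at 0.67 ± 0.12, and *Wnt3* was lower at -0.66 ± 0.24. Without slice 3, 7 rather than 11 members were called, the call of *Axin2* was lost without slice 1 (adjusted p = 0.0972), and that of *Wnt3* without slice 3 or 4 (adjusted p = 0.445 and 0.111). The untested *Rspo3* measured 10.2, 20.3, 8.05 and 8.74 CPM (48 UMIs) in the papilla group and 2.43 ± 0.357 CPM in the matrix group, and *Notum* measured 12.1, 10.1, 11.3 and 6.8 CPM (43 UMIs). Of the 39 UMIs of *Rspo2*, 8 lay in the papilla group. The papilla list summed to 289 CPM (range 245 to 344 over slices) in the papilla group and to 88.9 CPM in the matrix group. The papilla group also held 38154 CPM (range 35903 to 41242 over slices) of the inner root sheath list and 8669 CPM (range 7319 to 10108 over slices) of the hair shaft list. The matrix list summed to 857 CPM (range 773 to 978 over slices) in the papilla group and to 1777 CPM (range 1688 to 1911 over slices) in the matrix group. The part of these other lists in the results was not tested.

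In the adipose group 4 members were higher and 2 lower, where 4.99% of all genes were higher and 3.73% lower. *Fzd4* was higher at 0.83 ± 0.14 (SE, adjusted p = 4.09e-06), with 26.8 ± 6.7 CPM in the adipose and 42.4 ± 3.58 CPM in the muscle group, and *Fzd1* (0.32), *Fzd5* (0.41) and *Lef1* (0.43) were higher by less. *Rspo1* was lower at -1.20 ± 0.31 and *Sostdc1* at -0.62 ± 0.15. The call of *Lef1* was lost without slice 2 or 3 (adjusted p = 0.386 and 0.105), that of *Rspo1* without slice 2 or 4 (adjusted p = 0.0979 and 0.0795) and that of *Sostdc1* without slice 4 (adjusted p = 0.162). In an adipose cluster that formed with 16 clusters (347 spots), *Fzd4* measured 24.2 ± 4.72 CPM. Adipose clusters also formed among spots with at least 1000 genes (333 spots) and with RPCA integration (387 spots).

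**Figure D5:**
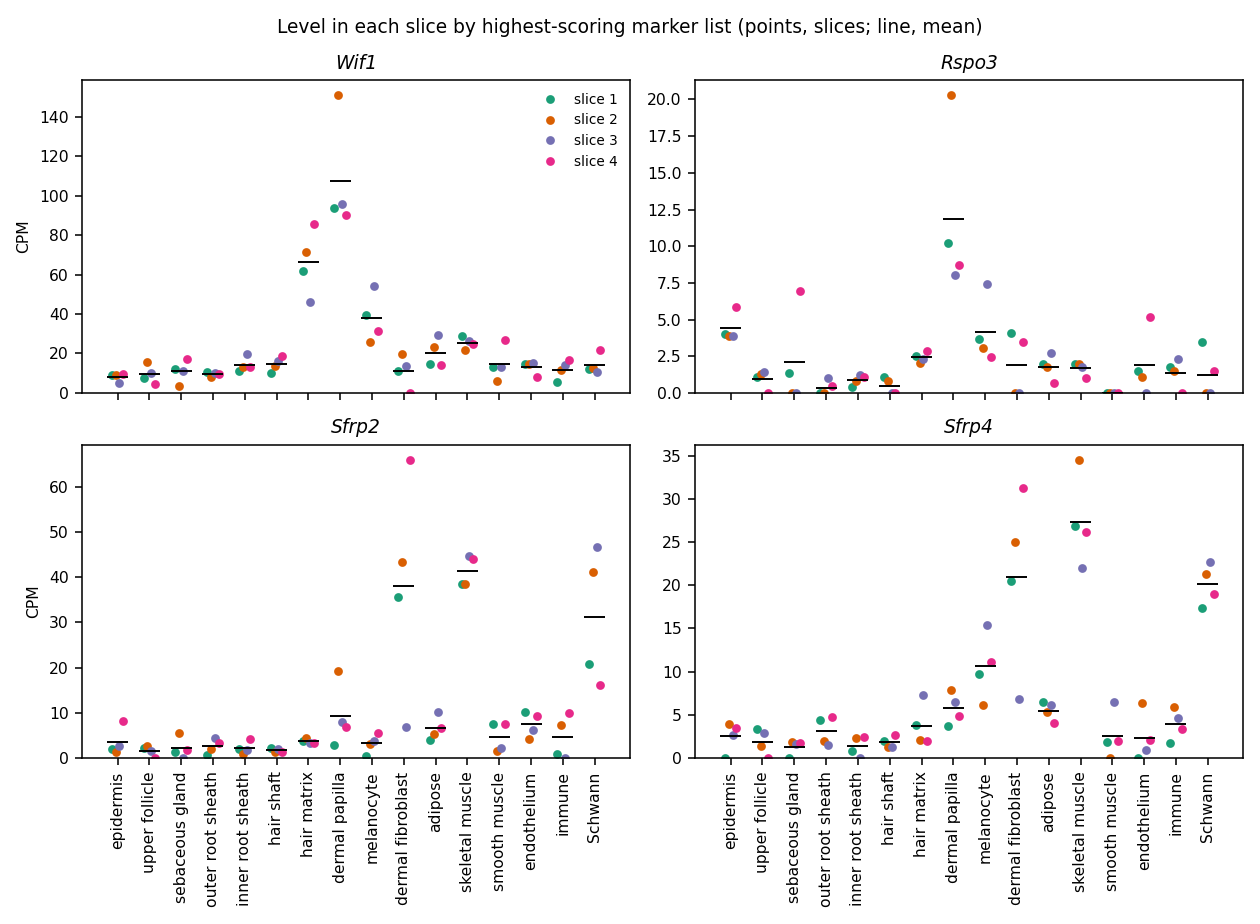
CPM of 4 members in each slice (points) with the mean of 4 slices (line) in 16 groups of spots, each group named by the marker list with the highest score. *Wif1* (108 CPM) and *Rspo3* (11.8 CPM) are highest by mean in the dermal papilla group, and *Sfrp2* and *Sfrp4* in the muscle, dermal fibroblast and Schwann groups. The Schwann group also holds markers of muscle and fibroblasts.

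Other genes of the pathway were read from a list of 64 symbols, of which 63 were found and 51 tested in the regions. Near the epidermis 11 of the 51 were higher and 20 lower, against 33.4% and 33.2% of all genes. *Dact2*, an inhibitor of signalling inside the cell, was higher near the surface at 2.47 ± 0.25 (SE, adjusted p = 9.92e-10), whereas the ligand *Wnt2* (-2.22 ± 0.31) and the receptor *Tnfrsf19* (-2.19 ± 0.14) were lower. In the hair matrix 19 were higher and 17 lower, shares close to the 36.4% and 32.9% of all genes, led by *Kremen2*, a DKK receptor, at 2.06 ± 0.18, the R-spondin *Rspo4* at 1.91 ± 0.27 and the WNT-binding *Frzb* at 1.74 ± 0.26. In the outer root sheath 10 were higher and 10 lower (19.5% and 15.7% of all genes), with *Trabd2b*, which cleaves WNT proteins, at 1.83 ± 0.19, *Lgr5*, the R-spondin receptor known from follicle stem cells, at 1.43 ± 0.13 and the inhibitor *Apcdd1* at -1.45 ± 0.10. In muscle 12 were higher and 14 lower (25.6% and 22.3% of all genes), and the SFRP relatives *Sfrp5* (3.05 ± 0.29) and *Frzb* (2.91 ± 0.23) stood highest, next to *Wnt2* at 1.63 ± 0.28. In the epidermis 12 were higher and 12 lower (26.8% and 23.2%), with *Lgr6*, another R-spondin receptor, at 1.09 ± 0.18, *Dact2* at 1.09 ± 0.39 and *Frzb* lower, with 4 UMIs in the region. The upper follicle had 11 higher and 13 lower (26.2% and 21.7%), with *Sfrp5* at 2.48 ± 0.38, *Dact2* at 2.15 ± 0.33 and *Wnt2* lower, with 3 UMIs. In the sebaceous gland 7 were higher and 10 lower (21.4% and 14%), with *Lgr6* at 1.61 ± 0.25, *Gpc4*, a cell surface proteoglycan, at 1.13 ± 0.11 and *Tnfrsf19* at -1.55 ± 0.32. The hair shaft had 20 higher and 13 lower (24.2% and 24.6%), with *Rspo4*, *Frzb* and *Dact2* lower (5, 8 and 6 UMIs in the region), and the melanocyte region 15 and 10 (17.8% and 26.2%), with *Wnt2* higher at 3.21 ± 0.37 and *Trabd2b* and *Sfrp5* lower, with 2 UMIs and 0.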

How the data were processed

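Visium libraries from 4 tissue slices, each with sections of the same 3 mice, were read from the matrices of UMI counts that the authors deposited. Per the file headers these counts came from Space Ranger 2.0.1, and the submitters' processing notes name mm10. The deposited counts are raw UMIs per gene and spot. The members and gene lists were chosen with earlier results of these data known.

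Spots over tissue with at least 250 genes (6411 of 6420) were clustered in Seurat 5.3.0 (R 4.3.3) on 2000 variable genes and 30 principal components, with 107 pathway genes left out, at the lowest resolution that gave 12 or more clusters (0.7, 13 clusters). A cluster was named after its best marker list by mean log2 fold where 3 or more of its markers were at least 1 log2 unit higher there and 1 lay among its top 20 genes. No doublet caller was run, since spots hold several cells. Dermal fibroblast, adipose and dermal papilla groups came from marker scores, a choice made after the clusters were seen. Spots were 0 steps from the epidermis if in its cluster and otherwise 1 or more steps along the hexagonal grid.

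UMIs were summed per slice and region, in regions with 10 or more spots in a slice. Sums were tested with the quasi-likelihood test of edgeR 4.0.16 (TMM, filterByExpr, robust) against the mean of the other named regions, with Benjamini-Hochberg adjustment over all genes tested and a threshold of 0.05. The share of all genes called is given beside counts of members. CPM were computed from the same sums, over all UMIs. An exact two-sided sign-flip permutation test over 4 slices cannot go below p = 0.125, so the order of levels is given by slices and ranges. All 44 members are accounted for, with values for those with at least 50 UMIs. From the list of 64 other pathway genes, up to 3 per comparison with the largest absolute change, called and of 1 direction in 4 slices, are named. In a simulation of the epidermis comparison over 11747 genes, 86.5% of 200 genes changed by 1 log2 unit were recovered, and 3.89% of calls were false. There all other genes kept the same share in every region and the sums of a slice were drawn independently, unlike in the data. These rates therefore need not hold for the comparisons reported here.

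The sums of a slice share a capture area, so slice numbers pair them by design. After the region means were removed, sums of the same slice correlated at 0.0627 to 0.158 over 12328 genes. Alternatives were DESeq2 1.42.0, library size alone, no low-count filter, the slice as a block, each slice left out, other clusterings, score-based regions, spots with at least 1000 genes, spots thinned to 5500 UMIs, 3 strips of position as units and steps 4 to 6 as the deep class. Which spots belong to which mouse was not given in the sources used here. The unnamed *Krtap4-9* and *Krt35* regions (670 and 492 spots) were given levels but did not enter the region tests. Clusters of 280, 129 and 18 spots were left out of both.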

Additional observations from a re-analysis of the deposited data

Results flagged for a closer look

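Of the 40 groups of 4 slices examined, each a member in its highest region, 1 held a slice far from the others. *Wnt5b* in the upper follicle measured 23.4 CPM in slice 2, while the other slices lay between 12.8 and 14.4 CPM. Chance sets apart about 1 in 20 such groups.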

How the results depend on the processing

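The number of members called stayed within 1.5 times the value reported under all alternatives that gave one, with 2 comparisons as exceptions. For the hair shaft against the other regions it was 27 and became 17 with regions from marker scores and 14 with RPCA integration, where the name hair shaft went to another cluster of 108 spots, so the 14 does not describe the same spots. The cause of the 17 was not tested. For the dermal papilla group it was 11 and became 7 without slice 3, with a range of 7 to 10 over the slices left out. Across all alternatives the numbers ran from 16 to 25 for the epidermis, 20 to 30 for the hair matrix, 23 to 37 for the melanocyte region, 22 to 34 for the outer root sheath and 31 to 40 for near against deep spots. The melanocyte region held 361 spots with 16 clusters, 359 among spots with at least 1000 genes and 395 with thinned spots, rather than 101. *Krt35* was then among its leading genes, so its results there do not describe the same spots. With each slice left out in turn, near against deep gave 37 to 38 calls. No upper follicle region formed among spots with at least 1000 genes, so its comparisons have no value there.

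With the slice as a replicate block, which the shared capture area supports by design, near against deep gave 40 calls instead of 39, because *Lrp6* was then called, and the other numbers moved by at most 2. *Lrp6* near against deep was 0.20 and not called, and its sign turned in 3 settings, namely 16 clusters (-0.037), RPCA integration (-0.022) and thinned spots (-0.00026). Of 80 member results with a test in the regions and by distance, 1148 repeats under an alternative gave 46 lost calls, 3 gained calls and these 3 turned signs. Besides those given above, *Nkd1* near against deep was lost in 4 settings (to -0.017 with thinned spots), *Fzd3* and *Fzd7* near against deep with thinned spots (0.13 and 0.30), and *Fzd6* near against deep with 16 clusters (0.21) and thinned spots (0.24). *Lgr4* and *Ctnnb1* near against deep were lost under each other clustering except that of spots with at least 1000 genes (*Lgr4*: 0.03 with 16 clusters), *Fzd5* in the shaft with RPCA integration, *Fzd6* in the melanocyte region without slice 2 or 3 (adjusted p = 0.0943 and 0.0664) and with thinned spots, and *Dkk3* there with thinned spots (adjusted p = 0.0503). *Wnt7b* near against deep was also lost with 3 strips of position as units (adjusted p = 0.172). Of 224 repeats for the score-based groups, chosen after the data were seen, 32 lost the call. Precision is limited by low counts for *Rspo3*, *Notum*, *Lrp5* and *Dkk2*.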
